A study of Mus musculus with 6 samples.

Results

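The genes described here are 52 genes of G2 phase and mitosis. Genes of this kind are used to score how many cells of a sample are about to divide or dividing. The 52 were chosen by symbol and matched to the Ensembl identifiers of the deposited counts. All 52 were found among the 55487 genes counted, and all 52 passed the filter on low counts. RNA came from LSK cells, which are sorted from bone marrow as lacking lineage markers and carrying c-KIT and SCA1. Both blood stem cells and the early progenitors made from them fall in this gate. The groups were 3 wild type (WT) libraries and 3 libraries from mice without functional Brm (BrmKO), all on the strain background given as C56Bl/6. Brm is the older name of Smarca2, whose protein is the motor of a class of SWI/SNF remodellers. Age, sex and treatment are not given in the labels, nor is the part of the gene that was removed. The design text counts 3 mice of each genotype, and the loss is not described as limited to blood cells, so an effect within LSK cells and one from their surroundings cannot be told apart. These are bulk samples, so fewer cells of a kind and less RNA per cell cannot be told apart either.

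A cell enters mitosis when the kinase CDK1, bound to a B-type cyclin, is activated. Polo-like and Aurora kinases then drive the building of the spindle, kinetochores tie chromosomes to it, and the anaphase-promoting complex marks cyclin B and securin for destruction so that the chromatids part. Most of these genes are transcribed in a late wave of the cell cycle by the MYB-MuvB complex and FOXM1, and are held down in resting cells by the related DREAM complex. Stem cells of the marrow mostly rest, whereas the multipotent progenitors of the LSK gate divide often.

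The control of this wave is written in short promoter elements. The cell cycle genes homology region (CHR), the site of MuvB, was searched as TTTGAA or TTCGAA, and the CCAAT box, the site of NF-Y, as CCAAT, each on both strands, in RefSeq promoters of build GRCm38.p6 that run from 250 bases before the start to 50 after it. A promoter was found for 46 of the 52 genes. The CHR was present in 35 of the 46 (76.1%), against 21.7% of all 27025 genes of the table. A CCAAT box was present in 36 (78.3%), against 41.1%, and both in 29 (63%), against 8.61%. Within 50 bases of the start, a CHR began in 29 genes (63%), against 6.12% of all genes. A CHR and a CCAAT match shared bases in 1 of the 46 genes, Cdca8. These are matches of letters and not measured binding. The 250 bases before the start are shown for the kinase Cdk1 and the APC activator Cdc20, which carry both elements there, and for Ect2, Plk1 and Cbx5, which had the smallest p-values of the 52 genes. Capitals mark the CHR and the CCAAT box, either of which may read on the opposite strand as TTCAAA or ATTGG.
Cdk1 (chr10:69352913-69353162, minus strand): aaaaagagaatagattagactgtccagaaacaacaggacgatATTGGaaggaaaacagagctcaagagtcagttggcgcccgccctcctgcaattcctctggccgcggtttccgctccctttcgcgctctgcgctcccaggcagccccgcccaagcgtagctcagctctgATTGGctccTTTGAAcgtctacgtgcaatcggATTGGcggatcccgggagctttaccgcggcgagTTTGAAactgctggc
Cdc20 (chr4:118437344-118437593, minus strand): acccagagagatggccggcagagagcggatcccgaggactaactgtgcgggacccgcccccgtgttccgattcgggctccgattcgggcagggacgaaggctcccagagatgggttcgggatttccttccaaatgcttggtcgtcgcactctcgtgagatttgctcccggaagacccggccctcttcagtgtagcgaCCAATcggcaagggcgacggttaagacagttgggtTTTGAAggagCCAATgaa
Ect2 (chr3:27153879-27154128, minus strand): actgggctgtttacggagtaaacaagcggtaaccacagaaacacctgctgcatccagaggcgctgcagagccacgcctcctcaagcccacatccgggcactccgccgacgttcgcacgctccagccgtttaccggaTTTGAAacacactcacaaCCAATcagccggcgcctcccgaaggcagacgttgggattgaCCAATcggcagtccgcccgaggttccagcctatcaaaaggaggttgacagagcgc
Plk1 (chr7:122159185-122159434, plus strand): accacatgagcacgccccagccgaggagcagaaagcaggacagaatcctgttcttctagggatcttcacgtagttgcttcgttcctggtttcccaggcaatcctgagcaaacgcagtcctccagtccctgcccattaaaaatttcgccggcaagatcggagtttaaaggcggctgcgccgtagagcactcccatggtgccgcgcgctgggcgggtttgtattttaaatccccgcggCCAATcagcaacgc
Cbx5 (chr15:103239853-103240102, minus strand): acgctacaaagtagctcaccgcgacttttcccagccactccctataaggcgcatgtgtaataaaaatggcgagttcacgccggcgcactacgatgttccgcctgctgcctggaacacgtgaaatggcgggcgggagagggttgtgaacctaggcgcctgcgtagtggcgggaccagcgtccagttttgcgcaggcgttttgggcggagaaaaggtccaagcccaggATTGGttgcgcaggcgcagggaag

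Cdk1 had CHR matches starting 71 and 15 bases before the start, and Cdc20 had 1 at 18 bases before it. The CHR of Plk1 lay 31 bases past the start and so outside the stretch shown. Ect2 had a CHR in the stretch shown and another 40 bases past the start. Neither of the 2 promoters listed for Cbx5 held a CHR, and the 1 shown held a single CCAAT box, 24 bases before the start.

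**Figure D1:**
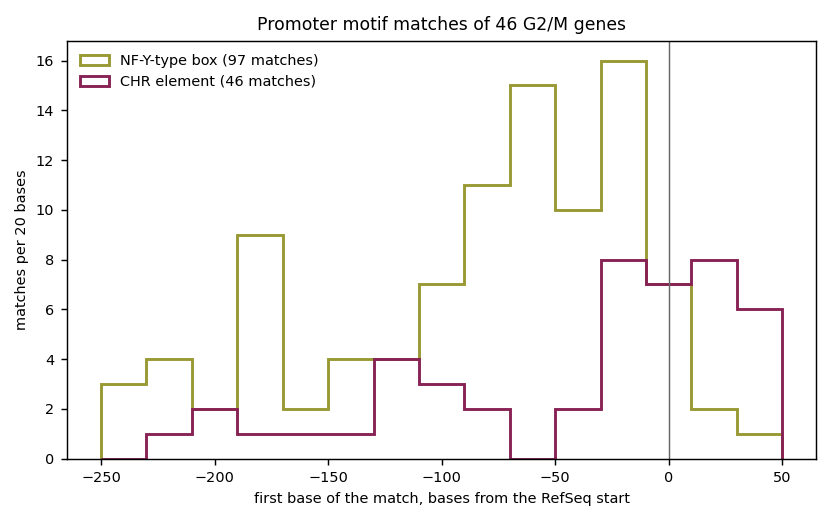
Number of motif matches per 20 bases (y axis) by distance from the RefSeq start (x axis, bases) in the first listed promoter of 46 G2/M genes. The 46 CHR matches (purple) pile up around the start, while the 97 matches of the NF-Y-type box (olive) lie mostly upstream of it.

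Reads in genes numbered 28.01 to 36.46 M per library. Smarca2 stood at 174, 213 and 150 CPM (read counts scaled by the size of the library) in the WT libraries and at 26.9, 26.5 and 27.9 CPM in the BrmKO libraries, a log2 fold change of -2.72 ± 0.13 (SE, adjusted p = 2.97e-05). It fell in every library labelled BrmKO. Of the markers of the gate, Kit stood at 849 to 1030 CPM over the 6 libraries and Ly6a, which encodes SCA1, at 18.7 to 35.7 CPM. The T cell gene Cd3e had 0 reads in all 6 libraries, and the neutrophil gene Ly6g stood at 0 to 0.116 CPM. The lists that hold these genes were not at 0, with sums of 278 to 325 CPM for 11 T and NK genes, mostly Nkg7 and Lck, and of 290 to 373 CPM for 13 monocyte, macrophage and neutrophil genes. The replicates numbered 3 stood apart from the other libraries. WT replicate 3 was nearer to BrmKO replicate 3 (chi-square per degree of freedom 20.54) than to WT replicates 1 and 2 (44.55 and 48.73). They also held more of the counts outside genes, 8.41% and 9.29% against 5.79% to 6.61% in the other 4. For the G2/M genes, the median, the number above 0 and the number at an unadjusted p under 0.05 are also given without them.

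G2/M genes were abundant in LSK cells of both genotypes. Levels between genes were compared as TPM, a share of the library scaled by the length of the gene's exons. In WT the 52 genes ranged from 16.6 to 830 TPM with a median of 112 TPM, against a median of 17.9 TPM over all tested genes with a length. All but 1 of them lay in the upper part of that range above its median, and 20 lay among the top 10% of genes. Tubb4b, a beta-tubulin of the microtubule lattice, stood highest in WT at 830 ± 31.5 TPM (SD, n = 3), and Hmgb2, a DNA-bending chromatin protein, followed at 823 ± 126 TPM. Cks1b, the small subunit that binds CDKs, stood at 563 ± 33.2 TPM. At the other end were Cenpf, a large kinetochore and nuclear matrix protein, at 16.6 ± 2.88 TPM, the ubiquitin ligase G2e3 at 22.6 ± 3.06 TPM and the CDK1-activating phosphatase Cdc25c at 25.3 ± 1.04 TPM. Tubb4b and Hmgb2 did not differ beyond their spread, and neither did Cdc25c and G2e3. In BrmKO the same 3 genes were lowest, at 16.2 ± 0.335, 21.0 ± 2.75 and 30.2 ± 3.24 TPM. Hmgb2 (851 ± 52.2 TPM), Tubb4b (848 ± 13.8 TPM) and Cks1b (580 ± 32.6 TPM) were highest. The place of a gene depends on the length used, which joins all its exons and came to 15433 bases for Cenpf. Without scaling by length, Cenpf had a mean of 72.7 CPM in WT, above G2e3 (50.7 CPM), Cdc25c (35.4 CPM) and Psrc1 (27.2 CPM).

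**Figure D2:**
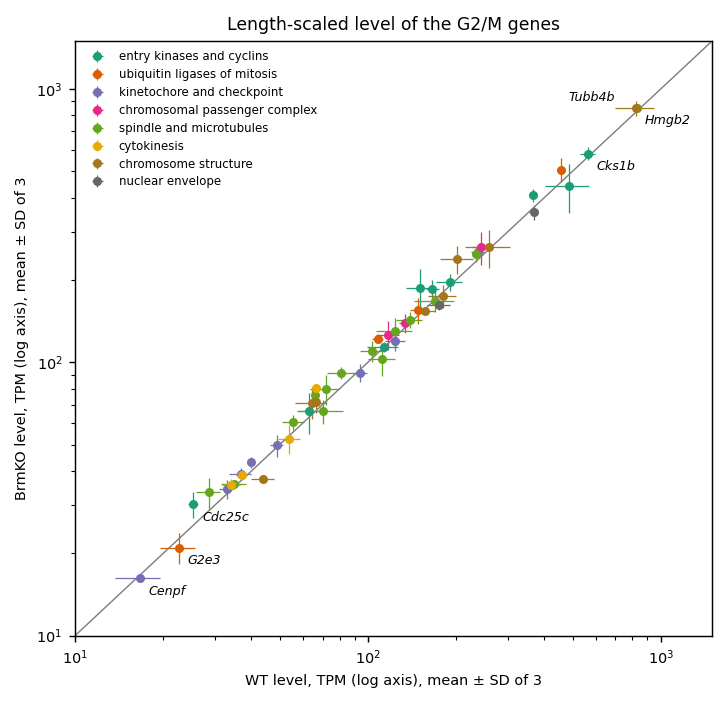
Mean level of each of the 52 G2/M genes in WT (x axis) and BrmKO (y axis), in TPM on log axes, with bars for the SD of 3 libraries and a line of equal level. The points follow the line from Cenpf (16.6 TPM in WT) to Tubb4b (830 TPM in WT).

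The question of the comparison is what loss of BRM does to expression in these cells, here to the programme of cell division. None of the 52 genes passed the test (edgeR quasi-likelihood, Benjamini-Hochberg over 15691 genes), where 22 genes or 0.140% of all genes tested did, 0.0829% higher and 0.0574% lower in BrmKO. DESeq2 and limma-voom also called 0 of the 52, with 4 (7.69%, against 6.42% of all genes) and 2 (3.85%, against 6.38%) at an unadjusted p under 0.05. DESeq2 called 150 genes in all and limma-voom 21. In edgeR there were 3 at that level, Ect2 and Plk1 above 0 and Cbx5 below it, that is 5.77% of the genes against 5.85% of all genes tested (3.14% higher, 2.71% lower). The log2 fold changes of the 52 ran from -0.23 to 0.31 with a median of 0.06, against -0.01 over all genes, and 38 of 52 (73.1%) lay above 0, against 48.8% of all genes. Their small spread made the limits narrow. The 95% interval of the fold change, taken gene by gene without adjustment, lay within 1.5-fold either way for 51 of the 52 (98.1%), against 54.7% of all genes, and within 2-fold for all 52, against 69.6%. The exception was Plk1, whose interval on the log2 scale ran from 0.01 to 0.61. The SD between libraries of the same genotype was smaller for these well-covered genes (701 to 26198 reads per gene and library) than for genes at large, with a median on the log2 scale of 0.116 in WT and 0.117 in BrmKO against 0.195 and 0.185.

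The median and the count above 0 depended on single libraries. Without BrmKO replicate 2 the median was 0.02 and 32 of 52 lay above 0. It was 0.11 without BrmKO replicate 3 (41 above 0) and 0.10 without WT replicate 2 (39 above 0). The libraries of the genotypes did not overlap in 9 of the 52 genes (17.3%), against 11.1% of all genes. In 8 of these BrmKO was higher (15.4%, against 5.69%), and in 1, Cbx5, it was lower (1.92%, against 5.37%).

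**Figure D3:**
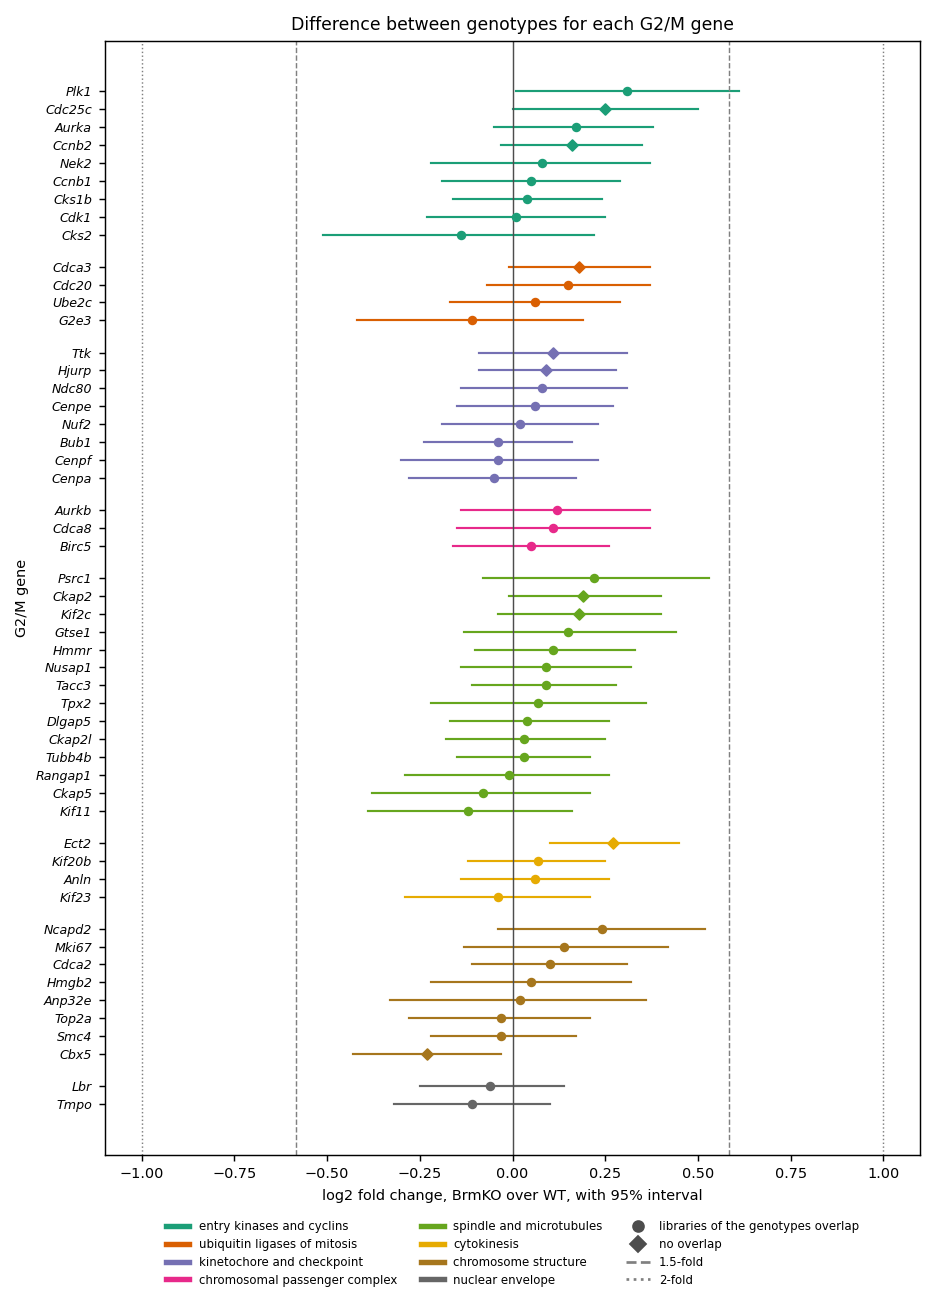
Log2 fold change of BrmKO over WT (x axis) with its 95% interval for each of the 52 G2/M genes (rows, coloured by role), with diamonds where the libraries of the genotypes did not overlap and lines at 1.5-fold and 2-fold. The values run from -0.23 (Cbx5) to 0.31 (Plk1), and every interval lies inside the 2-fold lines.

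The kinases and cyclins that start mitosis lay mostly a little above their WT level. Of 9, 8 lay above 0 on the log2 scale (median 0.08) and none passed. Relative to the mean of all libraries, their mean log2 level was -0.01, 0.14 and 0.02 in BrmKO replicates 1, 2 and 3. In WT it was -0.04, -0.12 and 0.01, so only BrmKO replicate 2 lay well above every WT library. Plk1, the polo-like kinase that acts from mitotic entry to cytokinesis (chromosome 7, 122159439 to 122169873, plus strand, GRCm38), stood at 94.2, 103 and 85.7 CPM in WT and at 117, 138 and 95.9 CPM in BrmKO. BrmKO replicate 2 was highest, and BrmKO replicate 3 lay inside the WT range. Its log2 fold change was 0.31 ± 0.13 (adjusted p = 0.831), and 0.17 without BrmKO replicate 2. Cdc25c, the phosphatase that frees CDK1 of its inhibitory phosphates, stood at 37.0, 34.8 and 34.4 CPM in WT and at 37.5, 42.4 and 46.3 CPM in BrmKO. Its groups were apart by a narrow gap (0.25 ± 0.11, adjusted p = 0.841), and here BrmKO replicate 3 was the highest. Ccnb2, which encodes cyclin B2, had 155, 158 and 165 CPM in WT and 175, 189 and 167 CPM in BrmKO, again without overlap (0.16 ± 0.08, adjusted p = 0.925). Aurka, the kinase of the spindle poles, overlapped between genotypes (0.17 ± 0.09). Cdk1 itself stood at 154, 139 and 181 CPM in WT and at 153, 161 and 166 CPM in BrmKO (0.01 ± 0.11), and Ccnb1, its main partner cyclin B1, at 0.05 ± 0.11 on the log2 scale. The values of both in BrmKO lay within the WT range or just beyond it. Cks1b had a log2 fold change of 0.04 ± 0.09 and Nek2, a kinase of centrosome separation, of 0.08 ± 0.13. The only value below 0 in this group was that of Cks2, the sister of Cks1b, at -0.14 ± 0.16.

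Genes of the ubiquitin system in mitosis likewise lay mostly a little above their WT level. Of 4, 3 lay above 0 (median 0.11) and none passed. Cdca3, an adaptor that targets the CDK1 inhibitor WEE1 for destruction, stood at 90.2, 82.3 and 90.5 CPM in WT and at 96.1, 104 and 97.0 CPM in BrmKO, without overlap (0.18 ± 0.09, adjusted p = 0.871). Cdc20, the activator of the anaphase-promoting complex, had 233, 242 and 250 CPM in WT and 281, 289 and 235 CPM in BrmKO (0.15 ± 0.10). Replicates 1 and 2 of BrmKO exceeded all WT libraries and replicate 3 lay among them. Ube2c, the ubiquitin-conjugating enzyme of the same complex, had a log2 fold change of 0.06 ± 0.10, and G2e3 of -0.11 ± 0.13. The exons of Ube2c overlap those of Tnnc2 on the other strand over 22.8% of their length, where reads could be dropped as ambiguous.

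Kinetochore and checkpoint genes ranged from -0.05 to 0.11 with a median of 0.04, with 5 of 8 above 0 and none passing. Ttk, the checkpoint kinase MPS1, stood at 54.4, 56.2 and 56.4 CPM in WT and at 59.6, 63.4 and 57.1 CPM in BrmKO. Hjurp, the chaperone that loads the centromeric histone CENP-A, stood at 527, 575 and 575 CPM in WT and at 618, 583 and 590 CPM in BrmKO. Neither overlapped between genotypes, with log2 fold changes of 0.11 ± 0.09 and 0.09 ± 0.08 (adjusted p = 0.999 for each). Cenpa, which encodes that histone, had -0.05 ± 0.10. Ndc80 and Nuf2, partners in the complex that grips microtubules, had 0.08 ± 0.10 and 0.02 ± 0.09. The checkpoint kinase gene Bub1 had -0.04 ± 0.09, Cenpf -0.04 ± 0.12 and the motor gene Cenpe 0.06 ± 0.09. The chromosomal passenger complex corrects faulty attachments at the centromere. Its 3 genes overlapped between genotypes, with log2 fold changes of 0.12 ± 0.12 for the kinase Aurkb, 0.11 ± 0.11 for borealin (Cdca8) and 0.05 ± 0.09 for survivin (Birc5).

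Among the 14 spindle and microtubule genes, 11 lay above 0 with a median of 0.08 and none passed. Ckap2, a microtubule-stabilising protein, stood at 59.0, 61.4 and 60.4 CPM in WT and at 73.2, 63.4 and 70.1 CPM in BrmKO (0.19 ± 0.09, adjusted p = 0.871). Kif2c, the kinesin that takes microtubule ends apart at centromeres, stood at 105, 106 and 88.6 CPM in WT and at 119, 114 and 106 CPM in BrmKO (0.18 ± 0.10, adjusted p = 0.933). For these 2 genes every BrmKO library exceeded every WT library, for Kif2c by a gap that 3 digits do not show. Psrc1, a spindle protein that helps chromosomes align, overlapped between genotypes (0.22 ± 0.14). On the other side of 0 were Kif11, the motor that pushes spindle poles apart, at -0.12 ± 0.12, the microtubule polymerase Ckap5 at -0.08 ± 0.13, and Rangap1, the GTPase activator of RAN, at -0.01 ± 0.12. The remaining 8 genes, Hmmr, Gtse1, Tacc3, Nusap1, Tpx2, Dlgap5, Ckap2l and Tubb4b, had values from 0.03 to 0.15 and overlapped.

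Of the 4 genes of cytokinesis, Ect2 had the smallest p-value of all 52 genes in edgeR with all libraries and no replicate block. ECT2 is the exchange factor that activates RHOA at the cell equator and so starts the contractile ring (chromosome 3, 27097222 to 27153878, minus strand, GRCm38). It stood at 100, 99.3 and 105 CPM in WT and at 122, 126 and 120 CPM in BrmKO. All BrmKO libraries lay above all WT libraries, and the libraries within each genotype lay close together. Its log2 fold change was 0.27 ± 0.08, with an interval from 0.10 to 0.45 (1.07- to 1.36-fold), which did not pass over all genes (adjusted p = 0.485, and 0.110 to 0.999 over the alternatives, lowest with DESeq2). Leaving out any single library gave 0.26 to 0.30. Of the other genes of this step, Kif23, the kinesin of the midzone, had -0.04 ± 0.11, Anln, the ring scaffold anillin, 0.06 ± 0.09, and the kinesin gene Kif20b 0.07 ± 0.08. Whether Ect2 differed from them was not tested.

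Genes of chromosome structure went both ways, with 5 of 8 above 0 and a median of 0.03. Ncapd2, a subunit of condensin, stood at 393, 374 and 308 CPM in WT and at 458, 448 and 364 CPM in BrmKO (0.24 ± 0.12, adjusted p = 0.902). In each genotype replicate 3 was the lowest, and BrmKO replicate 3 lay below WT replicates 1 and 2. In the fit with a replicate block, Ncapd2 had the lowest adjusted p of the 52 genes (0.172, against 0.221 for Ect2). In the proliferation antigen gene Mki67 replicate 3 was again the lowest of each genotype, with 191, 199 and 160 CPM in WT and 220, 216 and 172 CPM in BrmKO (0.14 ± 0.12). Cbx5, which encodes the heterochromatin protein HP1-alpha (chromosome 15, 103191544 to 103239816, minus strand), was the only gene of the 52 whose BrmKO libraries all lay lower. It stood at 102, 120 and 115 CPM in WT and at 98.4, 94.4 and 94.5 CPM in BrmKO (-0.23 ± 0.09, adjusted p = 0.788). Leaving out WT replicate 2 brought it to -0.17. Top2a, the topoisomerase that untangles sister chromatids, had -0.03 ± 0.11, Smc4, the condensin ATPase, -0.03 ± 0.09, and the histone chaperone Anp32e 0.02 ± 0.15. Cdca2, a phosphatase adaptor of mitotic chromatin, had 0.10 ± 0.09. Hmgb2 stood at 651, 622 and 832 CPM in WT and at 677, 735 and 762 CPM in BrmKO (0.05 ± 0.12), with its highest value in WT replicate 3. Both genes of the nuclear envelope lay below 0, Lbr, the lamin B receptor, at -0.06 ± 0.09 and Tmpo, which encodes the LAP2 proteins, at -0.11 ± 0.09.

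**Figure D4:**
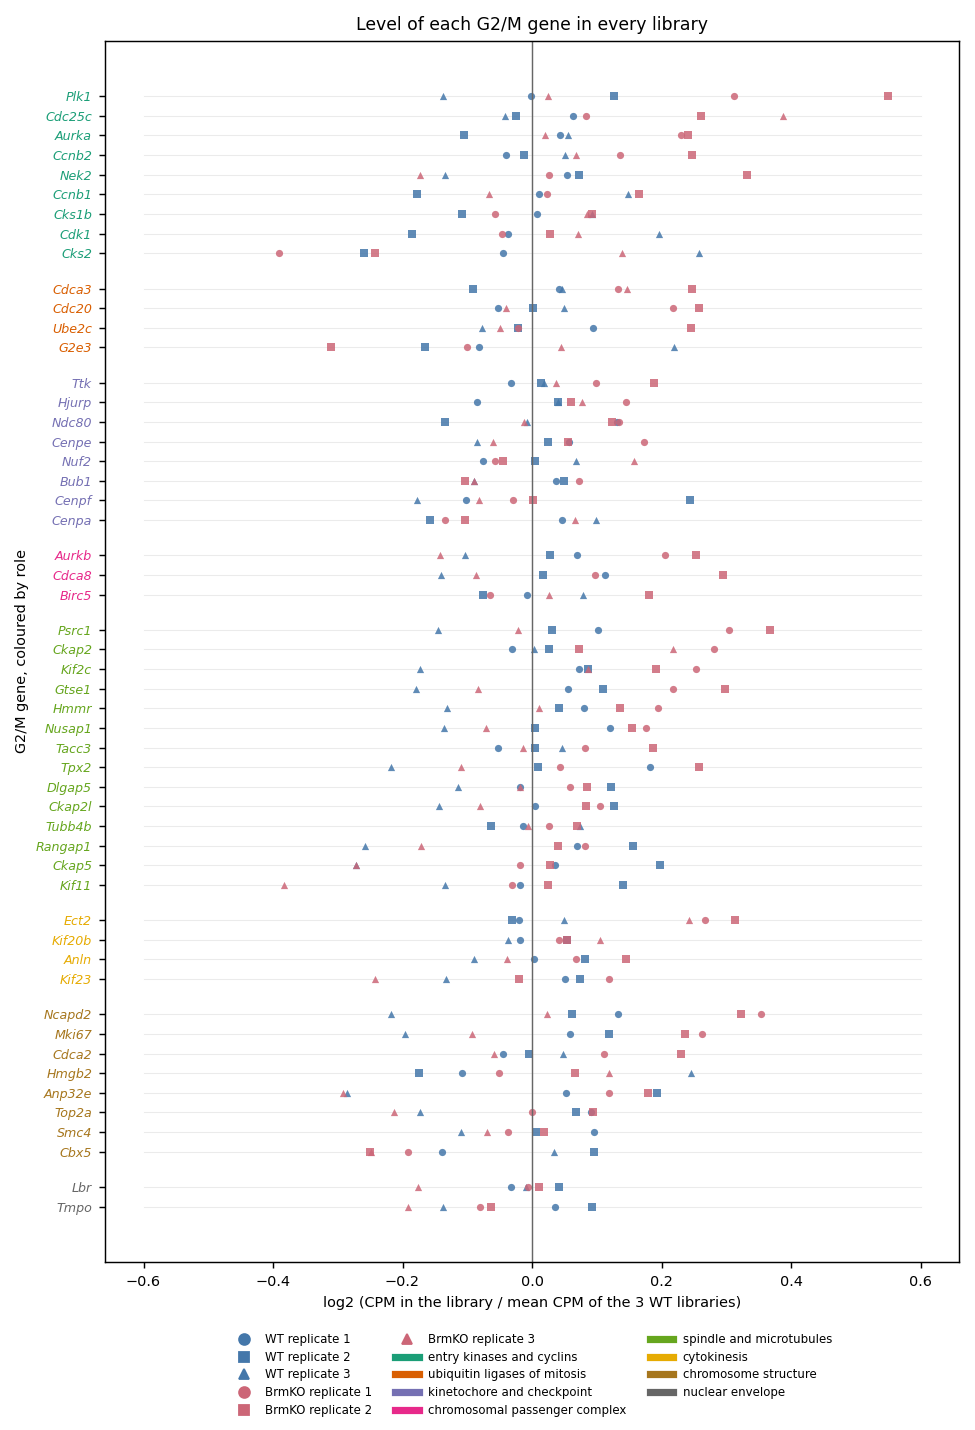
Level of each of the 52 G2/M genes (rows, coloured by role) in every library, as log2 of its CPM over the mean CPM of the 3 WT libraries (x axis), blue for WT and red for BrmKO, with circles, squares and triangles for replicates 1, 2 and 3. The genotypes interleave in most rows, and the triangles of either genotype often lie to the left.

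The libraries of a genotype also differed from each other. Summed over the 52 genes, the level was 9500, 9520 and 9240 CPM in WT and 9840, 10200 and 9120 CPM in BrmKO. By this sum BrmKO replicate 2 was highest and BrmKO replicate 3 lowest of all 6. By the mean log2 level over the 52 genes, BrmKO replicate 2 was again highest (0.10). The lowest was then WT replicate 3 (-0.07, against -0.05 in BrmKO replicate 3). BrmKO replicate 3 had the lowest value of its genotype in 37 of the 52 genes (71.2%), against 37.3% of all genes tested. WT replicate 3 had the lowest of its genotype in 29 (55.8%), against 37.4%, but also the highest in 18, against 39.3% of all genes. Over the 9 entry kinases and cyclins it was the highest WT library, with a mean of 0.01 on the log2 scale against -0.04 and -0.12, and likewise over the 4 ubiquitin genes, with 0.03 against -0.03 and -0.10. BrmKO replicate 2 had the highest of its genotype in 30 (57.7%), against 29.5%. Without both replicates numbered 3, 11 of the 52 genes had an unadjusted p under 0.05, all higher in BrmKO (21.2%, against 10.2% of all genes in either direction and 5.22% higher). Without BrmKO replicate 3 alone there were 7, again all higher (13.5%, against 7.79% and 3.71%). None passed in either fit, the smallest adjusted p without both being 0.220, where the median was 0.10 with 37 above 0. The 11 without both were Ect2, Cdc20, Ncapd2, Plk1, Aurka, Ccnb2, Aurkb, Cdca2, Mki67, Cdca3 and Psrc1. In the fit without both, 12 of 67 other mitotic genes (17.9%) were at that level in either direction, also more than the 10.2% of all genes. Other lists lay below 10.2%, with 4 of 43 G1/S genes (9.30%) and 1 of 14 subunit genes of the anaphase-promoting complex (7.14%). Of 12 regulator genes of the late wave 0 were at that level.

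Some lists of markers of other cells differed in the replicates numbered 3, and others did not. Set against the mean of the 6 libraries, the mean log2 level of 13 erythroid genes was 0.70 in WT replicate 3 and 0.42 in BrmKO replicate 3, against -0.40 to -0.23 in the other 4. That of 12 tested monocyte, macrophage and neutrophil genes was 0.63 and 0.39, against -0.41 to -0.11. Its summed level ran the other way, at 373, 343 and 334 CPM in WT and at 294, 321 and 290 CPM in BrmKO, lowest in replicate 3 of each genotype. The megakaryocyte and platelet list had a mean of 0.69 in WT replicate 3 but of -0.28 in BrmKO replicate 3, and the B lineage list had -0.23 and -0.00. By contrast, the erythroid progenitor gene Car1, an enzyme abundant in early red cell precursors, was high in WT replicate 3 (636 CPM) and BrmKO replicate 2 (603 CPM), against 346 to 402 CPM in the others. The summed level of the erythroid list overlapped between genotypes, at 716 to 1140 CPM in WT and 667 to 1060 CPM in BrmKO. In the erythroid list 5 of 13 genes lay above 0 between genotypes and none passed. In the monocyte list 3 of 12 lay above 0 and none passed. Of 13 megakaryocyte and platelet genes 0 lay above 0 and Pf4 fell, with sums of 732 to 969 CPM in WT and 486 to 675 CPM in BrmKO. In edgeR 1 of these 13 passed, lower in BrmKO (adjusted p = 0.0391), where 0.0574% of all genes did. At an unadjusted p under 0.05, 5 of these 13 and 2.71% of all genes were lower in BrmKO. Of 13 stromal and endothelial genes 7 were lower at that level and 0 higher. In all, 10 of these 13 lay below 0, with a median of -1.43, and none passed. Their mean log2 level varied most between libraries, from 1.71 in WT replicate 1 to -1.63 in BrmKO replicate 2, and their sums were 413, 247 and 196 CPM in WT and 216, 193 and 295 CPM in BrmKO. Of 9 tested B lineage genes 8 lay below 0 and none passed, with sums of 737 to 1500 CPM in WT and 716 to 859 CPM in BrmKO. T and NK genes went the other way, 5 of 7 tested lying above 0 with a median of 0.31. None of them passed, and 1 was higher in BrmKO at an unadjusted p under 0.05 in edgeR. By mean log2 level of this list, every BrmKO library (from 0.17 to 0.51) exceeded every WT library (from -0.48 to -0.10). By summed level the genotypes overlapped. The part of these cells in the levels of the G2/M genes was not tested.

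Genes of mitosis outside the 52 were counted in the same way. Of 67 such genes, all tested, 0 passed in edgeR or limma-voom and 1 in DESeq2, which called 150 of all 15691 genes. In edgeR 3 were at an unadjusted p under 0.05, all above 0 (4.48%, against 5.85% of all genes in either direction). Of the 67, 52 lay above 0 (77.6%, against 48.8% of all genes) and the median was 0.06. The leading gene was Cep55, a scaffold of the abscission bridge that acts after ECT2 in cytokinesis. It stood at 48.5, 47.1 and 45.9 CPM in WT and at 68.1, 71.6 and 63.7 CPM in BrmKO, fully apart and with little spread. Its log2 fold change was 0.52 ± 0.09, with an interval from 0.32 to 0.73. It did not pass in edgeR (adjusted p = 0.102) but did in DESeq2 (0.000212) and in edgeR with no filter on low counts (0.0426). Over the 6 fits that each left out a library its log2 fold change was 0.48 to 0.57 and its adjusted p 0.135 to 0.437. Troap, a spindle assembly protein, followed at 40.2, 41.8 and 35.8 CPM in WT and 52.8, 53.0 and 45.5 CPM in BrmKO (0.36 ± 0.11, adjusted p = 0.568). Below 0 were Zw10, of the checkpoint complex at kinetochores (-0.21 ± 0.11), and Sgo2a, a shugoshin that protects cohesion (-0.25 ± 0.19). Ccna2, which encodes the S and G2 cyclin A2, had 0.14 ± 0.10.

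The regulators of the late cell cycle wave were near their WT level. Of 12 genes of FOXM1, MYB-MuvB and DREAM, 0 passed in edgeR, DESeq2 or limma-voom (0 at an unadjusted p under 0.05), 6 lay above 0 and the median was 0.03. Foxm1 stood at 102, 103 and 89.8 CPM in WT and at 126, 108 and 104 CPM in BrmKO, without overlap but by a narrow gap (0.19 ± 0.10, adjusted p = 0.907). Mybl2, which encodes the B-MYB subunit that turns MuvB into an activator, overlapped (0.13 ± 0.12), as did the E2F family member E2f5 at -0.21 ± 0.19 and the histone-binding subunit Rbbp4 at -0.09 ± 0.10. The MuvB subunit gene Lin37 had 0.18 ± 0.10. Among the G2/M genes, the median log2 fold change was 0.06 in the 35 with a CHR and 0.05 in the 11 without.

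The core of the anaphase-promoting complex is not made in a late wave, and its genes lay around 0. Of 14 subunit genes 0 passed in any of the 3 tools, 5 lay above 0 and the median was -0.02. In edgeR 1 was at an unadjusted p under 0.05 (7.14%, against 5.85% of all genes). Anapc7 had 0.21 ± 0.09, Anapc5 0.10 ± 0.09, Anapc11 -0.16 ± 0.10 and Cdc23 -0.06 ± 0.09. Of 43 genes of the G1/S transition and DNA replication, 0 passed in any of the 3 tools. Of these, 31 lay above 0 (72.1%, against 48.8% of all genes and 73.1% of the 52 G2/M genes), and the median was 0.03. At an unadjusted p under 0.05 there were 0 in edgeR and 2 in DESeq2 (4.65%, against 6.42% of all genes). Cdc6, the licensing factor of replication origins, had 0.18 ± 0.08, Cenpu, a centromere gene of that list, 0.29 ± 0.14, Prim1, a primase subunit, -0.06 ± 0.10 and Atad2 -0.08 ± 0.10. Summed, this list stood at 8300 to 9260 CPM in WT and 8510 to 9560 CPM in BrmKO. As with the G2/M genes, its summed level was highest in BrmKO replicate 2 (9560 CPM) and was lowest in each genotype in replicate 3 (8300 and 8510 CPM). That the G2/M genes differed from the G1/S genes between genotypes was not tested.

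**Figure D5:**
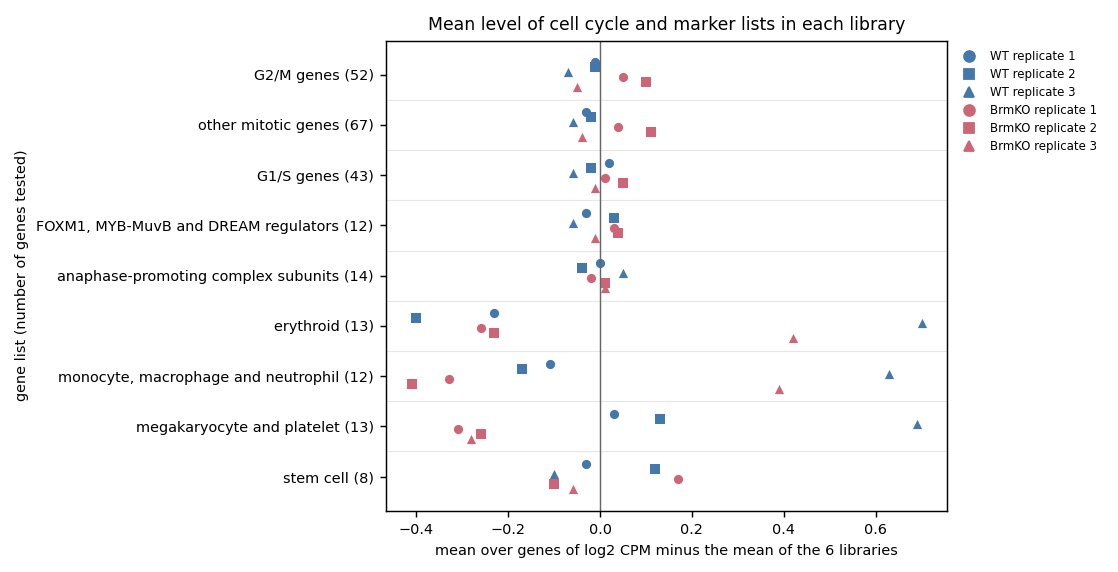
Mean over the tested genes of a list (rows) of log2 CPM minus the mean of the 6 libraries (x axis), blue for WT and red for BrmKO, with circles, squares and triangles for replicates 1, 2 and 3. The 52 G2/M genes stay between -0.07 and 0.10, whereas the triangles of the erythroid and the monocyte, macrophage and neutrophil lists lie far to the right, from 0.39 to 0.70.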

How the data were processed

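RNA of LSK cells was measured in 3 WT and 3 BrmKO libraries. The deposited values are raw read counts per Ensembl gene. The submitters' processing notes name bcl2fastq, FastQC, STAR, HTSeq and DESeq2, and build GRCm38. No version, strand setting or annotation is given in the sources used here. Libraries were made with a SMART-Seq v4 kit, per the labels' protocols. That kit does not keep the strand, so reads of overlapping genes on opposite strands cannot be told apart.

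Of 55487 genes, 55141 were matched to GENCODE M21 for symbols, positions and exon-union lengths. Of all reads, 5.79% to 9.29% lay outside genes, 6.23% to 6.47% were ambiguous and 4.38% to 5.27% not unique. These, and those not aligned (1.99% to 2.48%) or of low quality (up to 0.00368%), were left out. Exons of 15 of the 52 genes overlap another gene. Near-identical copies (minimap2 2.31, at least 95% identity over 50% of the longest transcript) were found for Ccnb1 and Tubb4b, and their copies held 0.508% and 0.121% as many reads.

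BrmKO was compared with WT by edgeR's quasi-likelihood test (edgeR 4.0.16, R 4.3.3, TMM, filterByExpr, robust), with Benjamini-Hochberg adjustment over 15691 genes and a threshold of 0.05. Log2 fold changes are given ± SE, positive where BrmKO is higher. Intervals are 95% intervals from the moderated degrees of freedom. CPM uses TMM-scaled library sizes. The list means by library use log2 CPM with a prior count of 2. Alternatives were DESeq2 1.42.0, limma-voom (limma 3.58.1), DESeq2 size factors, other filters, left-out libraries and a replicate block. The design text counts 3 mice per genotype.

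The 52 genes, the other lists and their roles were chosen with earlier results of these data known, so no list was tested. Genes were named by rule. These were Smarca2, up to 3 genes per role with the smallest p, genes whose groups do not overlap, the 3 highest and 3 lowest by TPM in WT, Foxm1, Mybl2 and Ccna2, and up to 2 genes in each direction per further list. Other names among the 52, and Kit, Ly6a, Cd3e, Ly6g, Nkg7, Lck, Pf4 and Car1, were added after their values were seen. Further marker lists, summed in CPM over WT and over BrmKO, were LSK gate genes (2640 to 2870 and 2830 to 2900), stem cell genes (393 to 472 and 412 to 442), megakaryocyte and platelet genes (732 to 969 and 486 to 675), B lineage genes (737 to 1500 and 716 to 859), T and NK genes (278 to 325 and 291 to 314) and stromal and endothelial genes (196 to 413 and 193 to 295).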

Additional observations from a re-analysis of the deposited data

How the results depend on the processing

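No G2/M gene passed under any of the 13 alternatives run, and the median of the 52 stayed above 0, at 0.02 to 0.11. The number of all genes called was 22, and 150 with DESeq2, 58 with no low-count filter, and 6 to 36 with a library left out. The number of G2/M genes with an unadjusted p under 0.05 was 3, and 1 to 7 with a library left out (1 without WT replicate 3, 7 without BrmKO replicate 3) and 11 without both replicates numbered 3. Deviations from the group means correlated at 0.0518 and 0.00775 for replicates 1 and 2 (across genes), which gave little sign that these numbers pair the samples. The replicates numbered 3 correlated at 0.194, the highest of all pairs of a WT and a BrmKO library. WT replicate 2 correlated best with BrmKO replicate 1. With the replicate block 25 genes were called, and of the 52 there were 0 called and 6 at an unadjusted p under 0.05 (11.5%, against 9.23% of all genes).

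Of 598 values of 46 named genes, 588 kept their direction and side of the threshold, 2 (Cep55) came to pass and 8 changed sign, all of them near 0 and not called. With a library left out, the log2 fold change ran from -0.03 to 0.19 for Hmgb2 (below 0 without WT replicate 1 or 2), from -0.01 to 0.09 for Cks1b, from -0.12 to 0.10 for Cenpf and from -0.15 to 0.01 for Atad2 (each changed without WT replicate 2). It ran from -0.20 to 0.01 for G2e3 (changed without WT replicate 3), from -0.02 to 0.11 for Birc5 (without BrmKO replicate 2) and from -0.09 to 0.00 for Lbr (without BrmKO replicate 3). The cause was not tested. Fits with a library left out have fewer samples. The lowest count of a G2/M gene in a library was 701 reads, and the median half-width of the 95% interval was 0.22 on the log2 scale.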
